A study of Mus musculus with 10 samples.

Results

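Mammary tumours from mice named MOLF were compared with mammary tumours from mice named NZB across all genes of an Affymetrix mg_u74av2 array, an early oligonucleotide array that measures mouse transcripts with short probes grouped into probe sets. The members were the 2 arrays with MOLF in the title and the 2 arrays with NZB in the title, which make 4 of the 10 arrays of the series. Per the series title the mice carried MMTV-PyMT, a transgene that places the polyomavirus middle T oncogene under a viral promoter active in mammary epithelium. Both groups, like every array of the series, carry the labels adult, female, 90 days of age and mammary gland, and the strain label reads FVB/Nj throughout. The names MOLF and NZB, which are also names of inbred mouse strains, therefore come from the titles alone, and the sources used here do not say how such mice were crossed or pooled. Each title calls its array a mix, and no label says that arrays A and B of a name came from different animals, so the p-values below measure the spread between arrays, which may be technical. The remaining named arrays were 2 of ILn, 2 of LP and 1 of FVBn. They entered the fit for its estimate of spread and show where MOLF and NZB lie among tumours of the series.

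A tumour dissected from the mammary fat pad can hold, beside the cancer cells, skeletal muscle of the body wall, gland tissue of the neck, fat, vessels and immune cells, and bulk RNA measures all of them together. Skeletal muscle is known for fast and slow isoforms of its contractile proteins, and salivary and lacrimal glands for large amounts of a few secreted proteins. Interferons act through receptors, STAT factors and interferon regulatory factors that bind a short element, the ISRE, in front of target genes, among them antiviral proteins, GTPases that attack intracellular microbes, and the class I antigen presentation genes. In such bulk samples fewer cells of a type and less RNA per cell cannot be told apart.

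The 4 arrays did not pair by name. Over the tested probe sets, MOLF A and MOLF B correlated at r = 0.868 (Pearson, log2 intensities, across probe sets, which are not independent replicates), and NZB A and NZB B at r = 0.852, whereas MOLF A with NZB B gave r = 0.927 and MOLF B with NZB A gave r = 0.953. Between the 2 MOLF arrays 1983 probe sets differed by more than 2-fold, and between the 2 NZB arrays 2157. MOLF A and NZB B also correlated less with the ILn, LP and FVBn arrays (r between 0.812 and 0.860) than MOLF B and NZB A did (r between 0.940 and 0.968). MOLF A and NZB B are called the arrays that stand apart, and MOLF B and NZB A the regular arrays. The differences MOLF A minus NZB B and MOLF B minus NZB A are called the 2 matched differences, and the second of them also lies within 1 title date. The actin 3'-to-5' probe ratio, a sign of RNA quality, was 0.78 and 0.60 log2 units on MOLF A and MOLF B, and 0.96 and 1.03 on NZB A and NZB B. The same ratio for Gapdh overlapped between the groups, at 0.20 and 0.31 on MOLF A and MOLF B, and 0.25 and 0.19 on NZB A and NZB B. The labelled tissue matched its markers: keratin genes Krt8, Krt18 and Krt19, the adhesion genes Epcam and Cdh1, the milk gene Csn3 and the mucin gene Muc1 lay between 8.16 and 13.32 log2 units on all 4 arrays, and none of these 7 genes passed the test. This takes the more intense Krt19 probe set, and a second one lay between 4.75 and 6.41. The markers were not all even. Krt19 (8.16 and 8.41 in MOLF, 9.09 and 9.27 in NZB) and Epcam (8.85 and 8.53, 9.43 and 9.28) were lower in MOLF than on every other array. Of 27 keratin and junction genes, 15 had a difference below 0 and 12 above.

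In the fit over 9 arrays 38 of 9899 tested probe sets (0.384%) differed between MOLF and NZB tumours at an adjusted p under 0.05 (limma, Benjamini-Hochberg). Of these, 13 (0.131%) were higher and 25 (0.253%) lower in MOLF tumours. Among them, secreted proteins of salivary type and major urinary proteins were higher in MOLF tumours, and skeletal muscle genes, interferon-induced genes and class I antigen presentation genes were lower. All of the 38 except 1, an H2-K2 probe set with matched differences of -1.17 and -0.93, changed by at least 1 log2 unit in the same direction in both matched differences. Taken over all tested probe sets, that agreement was met by 53 in the higher direction (0.535%) and by 97 in the lower direction (0.98%). The difference tested is the mean of the 2 matched differences, and a call needs arrays of a name to lie close. Agreement among the calls was thus largely fixed by the test and is no separate support for them. The arrays that stand apart gave 1044 probe sets (10.5%) past 1 log2 unit and the regular arrays 508 (5.13%), so 14.4% and 29.5% of these, in that order, agreed. The 2 MOLF values lay wholly above or wholly below the 2 NZB values in 2435 probe sets (24.6%). Without MOLF A, MOLF B, NZB A or NZB B the count of 38 became 3, 4, 15 or 6, each with fewer arrays in the fit, and with centring on the array median in place of a common distribution it became 3 (2 higher and 1 lower). A block for the date in the titles left 2, Acta1 and an unnamed probe set, and with the 4 arrays alone 0 passed (limma, 418 at an unadjusted p under 0.05). All of the 38 that were tested kept their direction under each of the 18 other settings, and all 38 passed when the kind of array (apart or regular) was a block. Settings that keep the same 4 values, such as array weights or this block, leave each difference unchanged, so there direction could not change. The kinds of array were told apart on these same arrays, and the block takes out the spread between them, so it is no separate check.

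**Figure D1:**
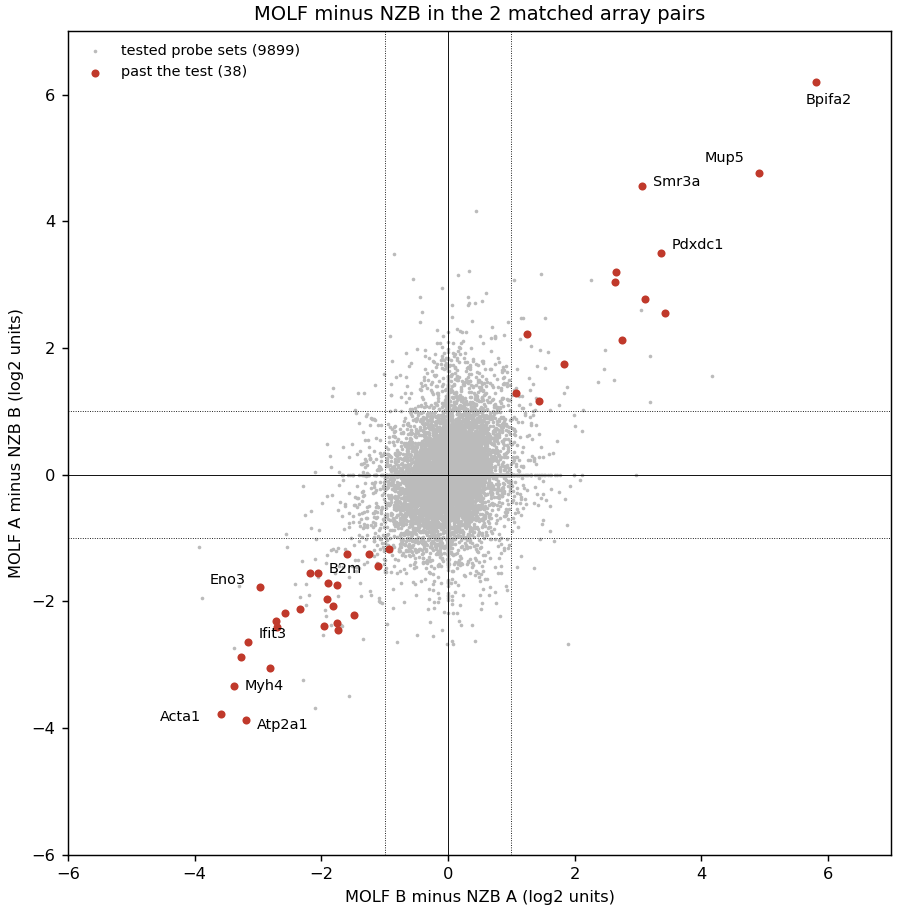
The 2 matched differences of each of 9899 tested probe sets, MOLF B minus NZB A on the x axis and MOLF A minus NZB B on the y axis, both in log2 units. Red points are the 38 probe sets past the test, which lie at the 2 ends of the diagonal, and the dotted lines mark differences of 1 log2 unit.

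The largest difference belonged to Bpifa2 (100080_at, chromosome 2), which encodes parotid secretory protein, a major protein of saliva. Its level was 11.57 and 11.83 log2 units in MOLF tumours A and B, against 6.02 and 5.38 in NZB tumours A and B. MOLF was 64.1-fold higher (6.0 ± 0.44 log2 units, SE, adjusted p = 0.0046), and the groups were far apart. Smr3a (102739_s_at), a salivary prohormone-like protein of the submandibular gland, measured 9.31 and 9.42 in MOLF tumours, against 6.35 and 4.75 in NZB tumours, where 4.75 is the floor below which levels were not read. The MOLF arrays agreed closely and the NZB arrays did not, and the difference was 3.81 ± 0.45 (adjusted p = 0.0201), an understatement because NZB B was at the floor. Amy1 (101058_at), salivary amylase, was at 7.30 and 8.18 in MOLF tumours and at the floor in both NZB tumours, which makes it at least 7.93-fold higher (adjusted p = 0.0178). Chia1 (160509_at), an acidic chitinase that mouse salivary and lacrimal glands secrete, was at 8.02 and 8.38 in MOLF tumours and at 5.64 and 5.90 in NZB tumours, a difference of 2.43 ± 0.21 (adjusted p = 0.00828).

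These 4 were the members past the test among 15 measured genes of the salivary list, all of them higher in MOLF, beside 10 of all 7098 genes (0.141%) in that direction. The median of the list was 0.27 log2 units against 0.00 over all genes. With Dnase1, a secreted nuclease, 5 of the 15 met the agreement of the matched differences, against 0.423% of all genes in that direction. Dnase1 had no call (6.21 and 7.12 in MOLF, the floor in both NZB tumours, adjusted p = 0.16). Klk1, tissue kallikrein of the submandibular gland, stood at 5.01 and 4.75 in MOLF tumours and 4.86 and 4.75 in NZB tumours, and Pip, another saliva protein, at 4.75 and 5.29 against 5.83 and 4.75. Both lay at or little above the floor in both groups, as did Klk1b16 and Klk1b5. Car6, the secreted carbonic anhydrase of saliva, measured 8.43 and 8.29 in MOLF tumours and 8.16 and 8.49 in NZB tumours (difference 0.04, adjusted p = 1).

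The other named tumours put these levels in context. Bpifa2 was at 13.12 and 13.08 in ILn, 13.32 in FVBn, and 7.18 and 5.72 in LP. MOLF thus lay below ILn and FVBn, and NZB lay beside LP. The same order held for Smr3a, Amy1 and Chia1, which were at 12.25, 11.67 and 11.71 in FVBn and at 4.75, 4.75 and at most 5.98 in LP. Averaged over the 15 genes, each set relative to its own mean over 9 arrays, the list lay at -0.48 and -0.28 in MOLF, -1.42 and -1.59 in NZB, 1.75 and 1.76 in ILn, -1.24 and -1.56 in LP and 3.06 in FVBn. The actin 3'-to-5' ratio was lowest where these genes were highest, at 0.22 and 0.28 in ILn, 0.22 in FVBn, and 1.12 and 0.94 in LP, beside the MOLF and NZB values above. The Gapdh ratio was also lowest in ILn (-0.41 and -0.21) and FVBn (-0.29), with 0.37 and 0.26 in LP. Between MOLF and NZB, however, the Gapdh ratio overlapped. The part that RNA quality or the amount of gland tissue plays in the difference between MOLF and NZB was not tested.

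Major urinary proteins, small lipocalins that carry pheromones and are made in liver and in several glands, were above the floor in MOLF and at it in NZB. Mup5 (101635_f_at, chromosome 4) measured 9.51 and 9.66 in MOLF tumours and was at the floor in both NZB tumours. It was at least 28.5-fold higher in MOLF (4.84 ± 0.26, adjusted p = 0.000937). MOLF lay above and NZB below all 5 ILn, LP and FVBn arrays, which spanned 7.00 to 9.15. Mup3 (101909_f_at) measured 7.52 and 7.86 in MOLF tumours and the floor in both NZB tumours, at least 7.64-fold higher (adjusted p = 0.0497). A second Mup3 probe set pointed the same way (2.06) without passing the test (adjusted p = 0.23). The suffix of these probe sets marks probes that can match several members of the family, so which Mup gene was read is uncertain.

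Scgb1b27, a secretoglobin of the salivary androgen-binding protein family, went the other way. Its level was 7.41 and 7.36 in MOLF tumours, against 9.93 and 9.59 in NZB tumours, and MOLF was 5.20-fold lower (-2.38 ± 0.16, adjusted p = 0.00418). MOLF lay below all 5 other arrays, which reached 9.86 to 11.18. The related Scgb1b2 measured 8.24 and 8.02 in MOLF and 8.12 and 8.30 in NZB, with no call. Of the 6 measured urinary, odorant-binding and secretoglobin genes 2 rose and 1 fell, beside 0.141% and 0.254% of all genes, and the list's median was 0.12.

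**Figure D2:**
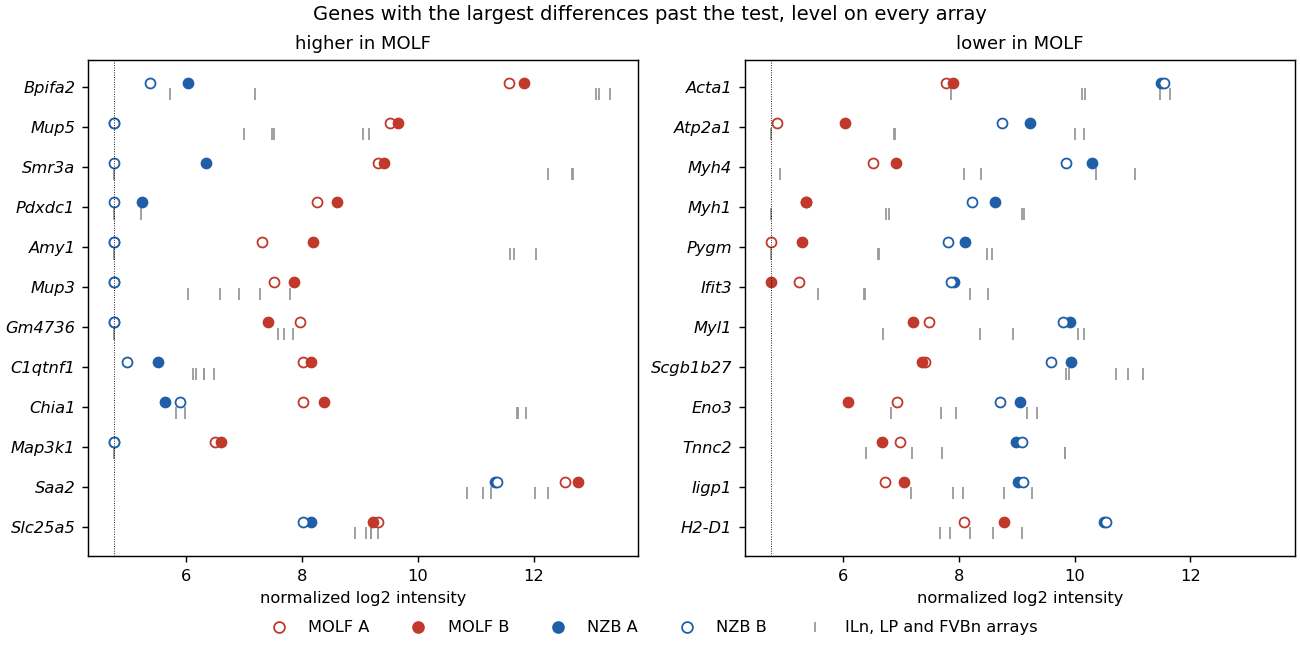
Normalized log2 intensity (x axis) of the 12 named genes with the largest differences past the test in each direction, on MOLF A (open red), MOLF B (filled red), NZB A (filled blue) and NZB B (open blue), with ILn, LP and FVBn arrays as grey ticks. The dotted line is the floor at 4.75, where both NZB arrays lie for Mup5, Amy1, Mup3, Gm4736 and Map3k1.

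Among the remaining genes higher in MOLF, Pdxdc1, Map3k1 and Slc25a5 had further probe sets that differed in the other direction, without a call. Pdxdc1, a decarboxylase-domain protein, measured 8.25 and 8.60 in MOLF tumours and 5.24 and 4.75 in NZB tumours on probe set 97713_at (3.43 ± 0.35, an understatement with NZB B at the floor, adjusted p = 0.0137), and no ILn, LP or FVBn array passed 5.21. On its other probe sets the difference was -0.47 and -0.83, neither past the test (adjusted p = 1 and 0.885). Map3k1, a kinase upstream of JNK signalling, measured 6.50 and 6.59 in MOLF tumours on 103022_at and the floor on each of the 7 other arrays, at least 3.46-fold higher than in NZB (adjusted p = 0.0222). Its other probe sets differed by -0.24 and -0.07 (adjusted p = 1 for both). For Pdxdc1 and Map3k1 MOLF alone was bright on 1 probe set, and the other probe sets had no call.

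C1qtnf1, a secreted protein of the C1q and TNF related family, measured 8.01 and 8.15 in MOLF tumours on 103676_at, against 5.51 and 4.97 in NZB tumours (2.85 ± 0.36, adjusted p = 0.0268). Here MOLF lay above and NZB below all 5 other arrays (6.11 to 6.47). A second probe set of the gene differed by 1.84 and another by 0.24, neither past the test (adjusted p = 0.499 and 0.99). Saa2, an acute phase protein of the serum amyloid A family, was abundant everywhere, at 12.54 and 12.76 in MOLF tumours and 11.33 and 11.37 in NZB tumours (2.46-fold higher, adjusted p = 0.0201). Its other probe set gave 11.18 and 11.46 in MOLF, against 7.28 and 9.63 in NZB (adjusted p = 0.246). Slc25a5, a mitochondrial ADP/ATP carrier, was at 9.30 and 9.23 in MOLF and at 8.16 and 8.02 in NZB, below all 5 other arrays (2.26-fold, adjusted p = 0.0497), while its other probe sets differed by -0.41 and -0.36 without a call. The predicted gene Gm4736 was at 7.96 and 7.41 in MOLF tumours and at the floor in NZB tumours, as it was in both LP tumours (at least 7.63-fold, adjusted p = 0.0249). ILn tumours, at 7.85 and 7.59, and FVBn, at 7.69, lay level with MOLF.

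The lower side was led by skeletal muscle. Acta1 (100381_at), the actin of skeletal muscle thin filaments, measured 7.78 and 7.90 in MOLF tumours, against 11.49 and 11.55 in NZB tumours. Both MOLF arrays lay far below both NZB arrays. MOLF was 12.8-fold lower (-3.68 ± 0.14, adjusted p = 0.000129). The matched differences were -3.77 for the arrays that stand apart and -3.59 for the regular arrays.

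The myosin heavy chains of fast fibres followed. Myh4, the heavy chain of type IIb fibres, was at 6.51 and 6.91 in MOLF tumours and at 10.29 and 9.85 in NZB tumours (10.3-fold lower, adjusted p = 0.00828). Myh1, the heavy chain of type IIx fibres, was at 5.35 and 5.36 in MOLF tumours and at 8.63 and 8.23 in NZB tumours (8.42-fold lower, adjusted p = 0.00899). On these probe sets of both genes the groups were separated by about 3 log2 units in each matched difference. A second Myh4 probe set differed in the other direction without a call (0.64, adjusted p = 0.972). On it the groups overlapped, at 6.21 and 6.78 in MOLF tumours and 6.56 and 5.17 in NZB tumours. Myl1, a fast light chain, measured 7.48 and 7.20 in MOLF tumours and 9.91 and 9.79 in NZB tumours (5.69-fold lower, adjusted p = 0.00895). Tnnc2, the calcium sensor of fast troponin, measured 6.97 and 6.66 in MOLF tumours and 8.99 and 9.09 in NZB tumours on 162325_f_at (4.67-fold lower, adjusted p = 0.0178). A second Tnnc2 probe set was at the floor on every array and was not tested.

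Muscle enzymes and pumps behaved alike. Atp2a1, the calcium pump of the fast sarcoplasmic reticulum, was at 4.86 and 6.04 in MOLF tumours on 162223_f_at, against 9.23 and 8.74 in NZB tumours (11.6-fold lower, adjusted p = 0.0201). Its more intense probe set gave a difference of -2.53, not past the test (adjusted p = 0.0888). Pygm, muscle glycogen phosphorylase, was at 4.75 and 5.29 in MOLF tumours and at 8.10 and 7.81 in NZB tumours (7.64-fold lower, an understatement because MOLF A was at the floor, adjusted p = 0.0201). Eno3, the muscle enolase, was at 6.93 and 6.08 in MOLF tumours and at 9.05 and 8.70 in NZB tumours (5.18-fold lower, adjusted p = 0.0333). Its matched differences were -1.78 and -2.97, among the widest gaps past the test, yet no MOLF value reached an NZB value.

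Of 25 measured genes on the skeletal muscle list 7 fell and none rose, beside 18 of all 7098 genes (0.254%) that fell. Another 11 met the agreement of the matched differences without passing the test, which makes 18 of 25, against 1% of all genes in that direction. The median of the list was -1.66, with -1.48 for the arrays that stand apart and -1.93 for the regular arrays, against 0.00 over all genes in each. The 2 genes that were not lower in MOLF on average, named after their values were seen, were slow-fibre troponins. Tnni1 measured 6.35 and 7.29 in MOLF tumours and 7.13 and 5.95 in NZB tumours, and Tnnt1 7.92 and 6.63 against 6.57 and 7.66. For both slow troponins the groups overlapped, whereas their fast counterparts lay lower on both MOLF arrays than on either NZB array, with no call: Tnni2 was at the floor on both MOLF arrays and at 6.47 and 6.20 in NZB tumours (adjusted p = 0.23), and Tnnt3 was at 6.86 and 5.16 against 8.54 and 9.59 (adjusted p = 0.15).

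**Figure D3:**
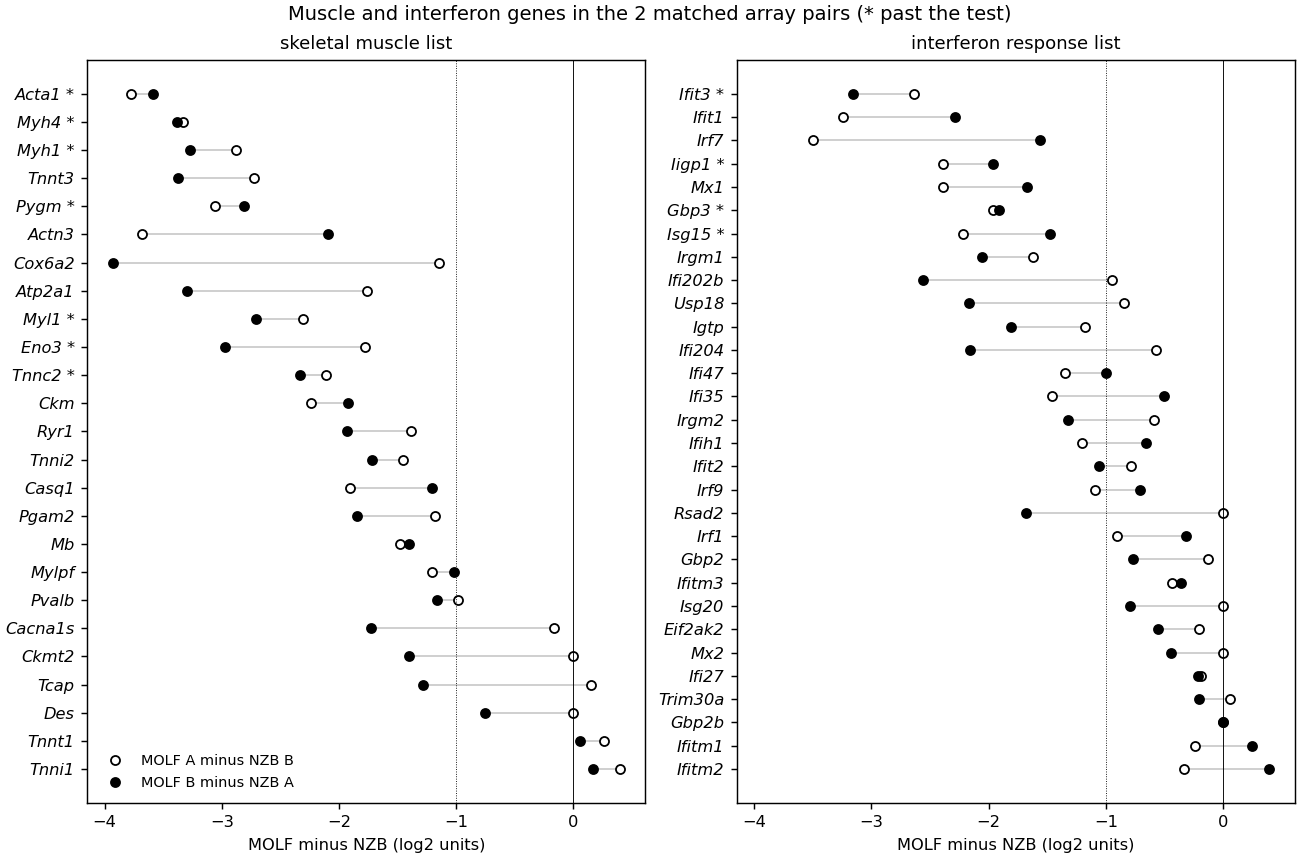
MOLF minus NZB (x axis, log2 units) for each of 25 muscle genes (left) and 30 interferon genes (right), as MOLF A minus NZB B (open circles) and MOLF B minus NZB A (filled circles). Stars mark the 7 muscle and 4 interferon genes past the test, the dotted line marks a difference of -1, and Atp2a1 is drawn with its more intense probe set.

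Muscle genes varied over the whole series. The mean level of the list, relative to each gene's mean over 9 arrays, was -0.93 and -1.14 in MOLF, 0.90 and 0.66 in NZB, 1.30 and 1.28 in LP, -0.28 and -0.38 in ILn and -1.43 in FVBn. MOLF thus lay between ILn and FVBn, and NZB between ILn and LP. Acta1 itself measured 11.64 and 11.48 in LP, 10.12 and 10.17 in ILn and 7.86 in FVBn. The part that the amount of muscle in the dissected tissue plays was not tested. The promoter of Acta1 in RefSeq (GRCm38.p6, chr8:123894726-123895025, minus strand, 300 bases around the gene's start) is shown for the muscle genes, with a CArG box, the site of serum response factor, in capitals.
Acta1: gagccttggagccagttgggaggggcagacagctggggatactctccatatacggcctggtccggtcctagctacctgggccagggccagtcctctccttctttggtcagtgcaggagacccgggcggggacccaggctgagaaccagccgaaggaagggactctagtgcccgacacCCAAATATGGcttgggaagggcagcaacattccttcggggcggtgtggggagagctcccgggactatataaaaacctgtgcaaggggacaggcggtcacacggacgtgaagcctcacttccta
A CArG box on either strand was found in the promoters of 2 of the 20 measured muscle genes with a listed promoter (10%). Both genes were among the 7 muscle genes past the test. The box was found in 535 of all 32851 promoters of the table (1.63%).

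The interferon-induced genes were the second group lower in MOLF. Ifit3 (93956_at), an antiviral protein with tetratricopeptide repeats, measured 5.23 and 4.75 in MOLF tumours, against 7.91 and 7.87 in NZB tumours. MOLF was 7.46-fold lower, an understatement with MOLF B at the floor (-2.90 ± 0.34, adjusted p = 0.0201), and lay below all 5 other arrays. Iigp1 (96764_at), an immunity-related GTPase, was at 6.71 and 7.05 in MOLF tumours and at 9.01 and 9.10 in NZB tumours (4.52-fold lower, adjusted p = 0.0178). Gbp3 (103202_at), a guanylate-binding protein, was at 6.53 and 6.71 in MOLF tumours and at 8.62 and 8.49 in NZB tumours (3.83-fold lower, adjusted p = 0.0137). Isg15 (98822_at), a ubiquitin-like protein that is attached to other proteins after interferon exposure, was at 7.04 and 7.64 in MOLF tumours and at 9.12 and 9.25 in NZB tumours (3.60-fold lower, adjusted p = 0.0256). On these probe sets of all 4 genes MOLF was below NZB and below each ILn, LP and FVBn array. A second Iigp1 probe set was also lower in MOLF, at 5.80 and 5.99, but did not pass the test (-1.49, adjusted p = 0.309). On it FVBn was at 5.97, within the MOLF values.

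The promoters of Ifit3 (chr19:34583279-34583578, plus strand), Isg15 (chr4:156200769-156201068, minus strand) and Gbp3 (chr3:142559794-142560093, plus strand), from RefSeq on GRCm38.p6, are shown for the interferon element. Capitals mark matches to the ISRE letters GAAANNGAAA on either strand, where neighbouring matches overlap in Isg15 and Gbp3.
Ifit3: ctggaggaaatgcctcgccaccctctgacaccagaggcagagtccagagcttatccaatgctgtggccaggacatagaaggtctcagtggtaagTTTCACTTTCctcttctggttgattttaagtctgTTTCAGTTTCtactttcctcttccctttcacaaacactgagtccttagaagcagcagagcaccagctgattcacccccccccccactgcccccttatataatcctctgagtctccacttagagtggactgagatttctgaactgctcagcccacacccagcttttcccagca
Isg15: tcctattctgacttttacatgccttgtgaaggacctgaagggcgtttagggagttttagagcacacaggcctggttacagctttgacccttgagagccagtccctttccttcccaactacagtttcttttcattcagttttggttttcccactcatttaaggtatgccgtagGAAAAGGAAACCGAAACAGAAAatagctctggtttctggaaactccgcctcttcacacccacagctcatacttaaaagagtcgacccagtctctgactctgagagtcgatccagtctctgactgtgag
Gbp3: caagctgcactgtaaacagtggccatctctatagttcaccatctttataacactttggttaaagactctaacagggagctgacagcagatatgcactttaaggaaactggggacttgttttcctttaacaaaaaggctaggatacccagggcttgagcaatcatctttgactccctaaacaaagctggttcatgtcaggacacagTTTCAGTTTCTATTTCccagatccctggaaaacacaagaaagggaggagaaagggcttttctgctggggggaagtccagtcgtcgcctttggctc
Ifit3 held 2 matches, Isg15 3 and Gbp3 2, while a second Gbp3 promoter in the table (chr3:142560106-142560405, plus strand) held 0. The same letters were found in at least 1 listed promoter of 15 of the 24 measured interferon genes that the table holds (62.5%) and in 1131 of all 32851 promoters (3.44%). A match describes these letters only and does not show binding.

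Over the whole interferon list 4 of 30 measured genes fell and none rose, beside 0.254% of all genes that fell. A further 5 met the agreement of the matched differences, which makes 9 of 30 against 1% of all genes, and in 20 of 30 both MOLF values lay below both NZB values, as they did in 868 of all 7098 genes (12.2%). The median of the list was -0.94, with -0.88 for the arrays that stand apart and -1.03 for the regular arrays. The 5 without a call, named after their values were seen, were Ifit1 (4.75 and 6.37 in MOLF, 8.65 and 8.0 in NZB, adjusted p = 0.16), Irf7, Mx1, Irgm1 and Igtp. Irf7, the regulator that amplifies type I interferon signalling, showed how far the arrays of a group could part, at 5.25 and 7.72 in MOLF and 9.28 and 8.75 in NZB (-2.53, adjusted p = 0.41). Differences were small at the other end of the list. Ifitm3, a membrane protein that blocks virus entry, was at 11.22 and 11.36 in MOLF and 11.71 and 11.66 in NZB (-0.40, adjusted p = 0.58), and Ifitm1, Ifitm2, Ifi27 and Trim30a differed by 0.20 log2 units or less.

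Ifi202b, a DNA-binding member of the interferon-inducible p200 family, was at the floor in both MOLF tumours and at 7.32 and 5.70 in NZB tumours. The NZB values were spread over more than 1 log2 unit, and the difference of -1.75 did not pass the test (adjusted p = 0.475). ILn tumours were at 7.30 and 7.32, LP tumours at 5.75 and 5.67, and FVBn at the floor. Averaged over the list relative to each gene's mean, interferon genes lay at -0.78 and -0.61 in MOLF, 0.54 and 0.30 in NZB, 0.68 and 0.84 in LP, -0.16 and -0.20 in ILn and -0.60 in FVBn. Of the immune cells that produce or answer interferon, none of 28 macrophage genes, 14 T and NK cell genes or 14 B cell genes passed the test, and the medians of these lists were -0.09, -0.11 and -0.12.

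Class I antigen presentation genes were lower in MOLF in part. B2m (93088_at), the light chain of every class I molecule, measured 10.01 and 9.72 in MOLF tumours, against 11.77 and 11.57 in NZB tumours. It was 3.49-fold lower (-1.80 ± 0.16, adjusted p = 0.00828), below all 5 other arrays. H2-D1, a class I heavy chain, measured 8.09 and 8.77 in MOLF tumours and 10.51 and 10.53 in NZB tumours on 97541_f_at (4.27-fold lower, adjusted p = 0.0497), where NZB was above all 5 other arrays. A second H2-D1 probe set was lower as well (-1.27, adjusted p = 0.0222), and another was at -0.80 (adjusted p = 0.196). H2-K2 (93714_f_at) was at 10.90 and 11.13 in MOLF and 12.05 and 12.06 in NZB (-1.05, adjusted p = 0.032). These probes can match several class I genes, so the gene behind them is uncertain. On the class I list B2m was the single call among 16 genes, and the median of the list was -0.55. A list takes the most intense probe set of a gene, which for H2-D1 had no call, and the H2-K2 call does not enter the count of this list. H2-Q1, another class I gene, went the other way in both matched differences (1.34 and 1.05), at 6.31 and 6.50 in MOLF and 5.45 and 4.97 in NZB, without a call (adjusted p = 0.58), and 4 of the 16 genes had a difference above 0. Tap1, the peptide transporter, was at 7.58 and 7.86 in MOLF and 8.93 and 8.42 in NZB (adjusted p = 0.34).

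Class II genes had no call among 12 measured. H2-Eb1, a class II beta chain, had the widest difference, with 5.39 and 4.75 in MOLF tumours against 8.64 and 7.34 in NZB tumours (-2.92 ± 0.46, adjusted p = 0.0681), and 7.17 to 9.28 on the other arrays. H2-Ea was at 4.75 and 5.58 in MOLF tumours and at 7.92 and 6.69 in NZB tumours (adjusted p = 0.263). No ILn, LP or FVBn array passed 5.33 for H2-Ea, so here NZB was the group apart from the rest, while for H2-Eb1 it was MOLF. Cd74, the invariant chain that travels with class II molecules, was at 10.25 and 10.47 in MOLF and 10.82 and 10.89 in NZB (adjusted p = 0.46), and the median of the list was -0.37.

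**Figure D4:**
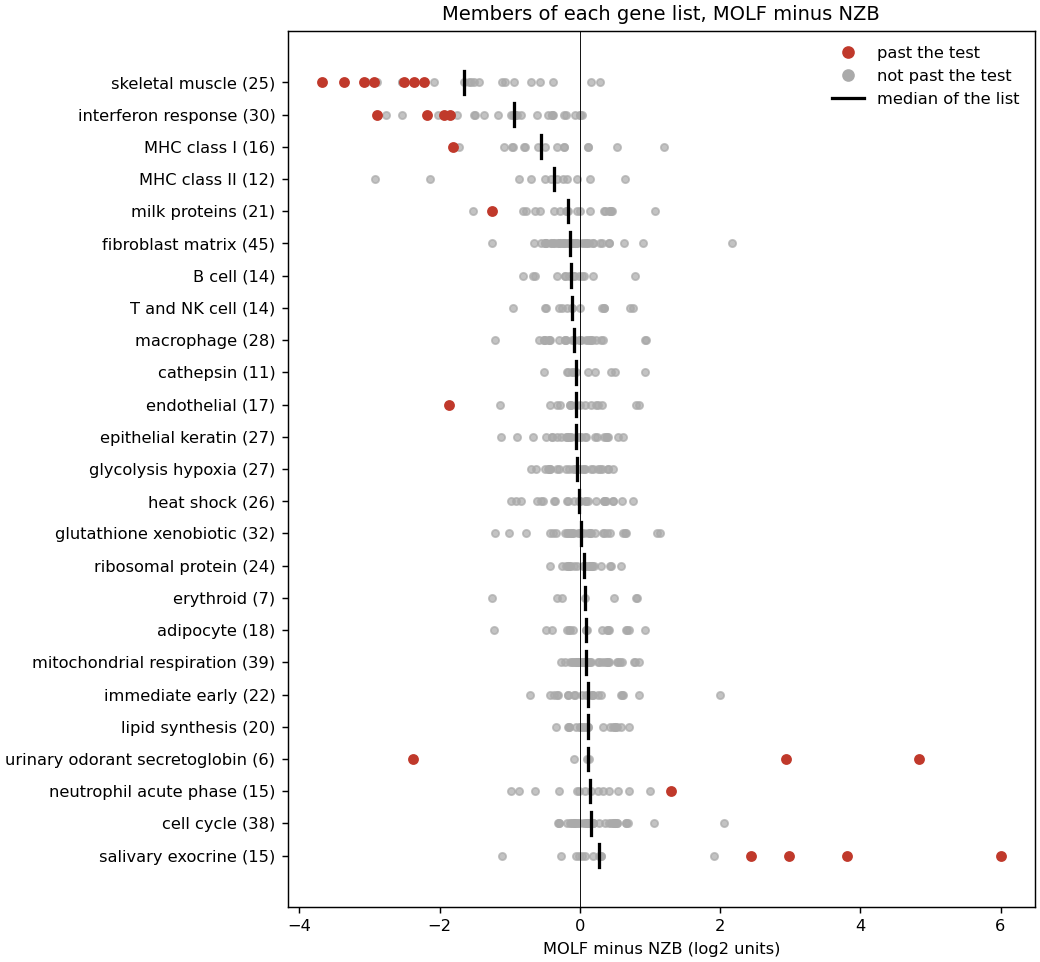
MOLF minus NZB (x axis, log2 units) for the members of 25 gene lists (rows, with the number measured), ordered by median from lowest to highest. Red points passed the test and black bars are medians, which run from -1.66 for skeletal muscle to 0.27 for salivary genes.

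Milk protein genes were high in both groups. Csn1s2a (100463_at), alpha-S2 casein, measured 9.57 and 9.46 in MOLF tumours, against 10.70 and 10.82 in NZB tumours, and MOLF was 2.38-fold lower (-1.25 ± 0.14, adjusted p = 0.0178). NZB lay above all 5 other arrays and MOLF within their range. It was the single call among 21 milk genes, whose median was -0.17. Csn1s1 (11.94 and 12.30 in MOLF, 12.93 and 12.86 in NZB) and Csn2 (11.19 and 11.08 in MOLF, 11.70 and 11.71 in NZB) were lower on both MOLF arrays without a call (adjusted p = 0.45 and 0.54), while Csn3 was at 13.32 and 13.08 in MOLF and 12.69 and 13.00 in NZB.

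Ctse, the aspartic protease cathepsin E, did not pass the test on any of 3 probe sets. On 93861_f_at it measured 10.58 and 10.72 in MOLF tumours and 9.94 and 9.51 in NZB tumours (0.92 ± 0.19, adjusted p = 0.209), and on 93860_i_at 9.88 and 10.26 against 9.21 and 9.37 (adjusted p = 0.698). On both of these MOLF was highest, NZB came next, and every ILn, LP and FVBn array was lower, at 8.70 or less. The other probe set lay between 5.22 and 5.44 in MOLF and between 4.94 and 5.33 in NZB.

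Notch4, a receptor of endothelial cells, was called lower on 93928_f_at, at 9.89 and 9.50 in MOLF tumours and 11.67 and 11.44 in NZB tumours (3.63-fold, adjusted p = 0.0293). As for the Mup probe sets, the suffix marks probes that can match several genes, so whether Notch4 was read is uncertain. The called probe sets of Atp2a1, Tnnc2, Saa2, Slc25a5 and Gm4736 carry the same suffix and the same uncertainty. The second Notch4 probe set was at the floor on both MOLF arrays and at 4.91 and 4.75 in NZB (-0.08), and the endothelial list had no other call among 17 genes (median -0.05). Lgals3bp, a secreted scavenger receptor protein that binds galectins, was at 8.08 and 8.18 in MOLF tumours and 9.77 and 9.33 in NZB tumours (2.68-fold lower, adjusted p = 0.048). Tpm2, beta tropomyosin, was at 6.49 and 7.15 in MOLF and 8.96 and 8.57 in NZB (3.85-fold lower), at the edge of the threshold (adjusted p = 0.04999). These last 2 genes and H2-K2 were named after their values were seen. Of the probe sets past the test 4 had no single gene symbol and are not named, and 1 is annotated with a microRNA symbol that was not matched to a sequence, so no value is given for it.

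Lists for the other cell types and processes had few or no calls. None passed among 45 fibroblast and matrix genes, 18 adipocyte genes, 7 erythroid genes, 27 keratin and junction genes, 11 cathepsins, 38 cell cycle genes, 27 glycolysis and hypoxia genes, 22 immediate early genes, 26 heat shock genes, 24 ribosomal protein genes, 39 mitochondrial respiration genes, 20 lipid synthesis genes or 32 glutathione and xenobiotic genes. Their medians ran between -0.14 and 0.16. Saa2 was the single call among 15 neutrophil and acute phase genes (median 0.15). Col18a1, a basement membrane collagen, had the widest difference of the matrix list at 6.46 and 8.21 in MOLF tumours and 5.02 and 5.31 in NZB tumours (2.17 ± 0.55, adjusted p = 0.354). Gadd45b, a stress-induced growth arrest gene, was at 9.10 and 7.52 in MOLF tumours and 6.0 and 6.62 in NZB tumours (2.00 ± 0.54, adjusted p = 0.413), with MOLF above all 5 other arrays. On a second Gadd45b probe set the groups overlapped (-0.12). Arg1, arginase of macrophages, came closest to the threshold among macrophage genes (9.59 and 9.79 in MOLF, 8.79 and 8.72 in NZB, adjusted p = 0.0699).

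The calls were also set beside the other tumours. The same counts were not made over all tested probe sets, so they describe the calls only and do not show which group stood out in general. Of the 38 probe sets past the test, MOLF was below all 5 ILn, LP and FVBn arrays in 12 and above all of them in 6. NZB was below all 5 in 4 and above all in 3. In 2 of these, Mup5 and 1 probe set of C1qtnf1, both groups lay outside the others on opposite sides. In 15 neither group lay outside the range of the others, and these include each muscle gene past the test and all 4 salivary genes.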

How the data were processed

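The deposited values are linear probe set intensities from 1-colour arrays, as the authors' files give them. The sources used here do not say how probes were summarised or arrays scaled. From these values the following was computed. Of 12488 probe sets 66 controls were left out. The log2 intensities of the 9 arrays with a strain name were brought to a common distribution (quantile normalization, limma 3.58.1 in R 4.3.3), values under the 30th percentile (27.0 in intensity, 4.75 in log2) were raised to it, and the 9899 probe sets above it on at least 2 of 9 arrays were tested. The array with no strain name was not used. limma fitted a mean per strain name (lmFit, eBayes with an intensity trend, 4 residual degrees of freedom), and the contrast MOLF minus NZB was adjusted by Benjamini-Hochberg over all tested probe sets at 0.05. All differences are log2 and ± is the SE of the fit. Where both arrays of a group lay at the floor, the fold is a lower bound. The number of arrays limits the precision. The procedure was tested on simulated data in which no array stood apart, so that test does not cover the 2 kinds of array seen here.

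Gene symbols came from GEO's platform annotation, in which 10855 probe sets had 1 symbol, 396 several and 1237 none. Entrez numbers matched 10839 symbols to RefSeq, and the tested set covered 7098 genes. A gene list counts 1 probe set per gene, the one with the highest mean. The members and the lists were chosen with earlier results of these data known, so their counts are descriptions. Named were the 12 or fewer genes in each direction with the largest difference among those past the test whose matched differences agreed, 3 each way with the widest gap between matched differences, Mup5, Acta1, Csn1s2a, Ctse and Ifi202b, and up to 4 members of each list past the test or else the 2 with the smallest p. Other genes in the text, apart from the tissue markers, were chosen after their values were seen. Alternatives covered scaling, floor, filter, array weights, blocks and arrays left out. Same-lettered arrays of MOLF and NZB deviated in opposite directions (r = -0.707), so the letters do not pair them.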

Additional observations from a re-analysis of the deposited data

Results flagged for a closer look

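In 13 probe sets MOLF minus NZB was at least 1 log2 unit in each matched difference but with opposite signs, 7 of them higher in MOLF on the arrays that stand apart and 6 on the regular arrays. The difference between the pairs was not tested. The widest was Ppp2r5d, a regulatory subunit of protein phosphatase 2A, at 4.75 and 6.66 in MOLF A and B and at 4.75 and 7.43 in NZB A and B. None of the 13 passed the test.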

How the results depend on the processing

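All named calls kept their direction wherever they were tested, but a setting that keeps the same 4 values could not change it. The count of 38 probe sets past the test became 3 with median centring (2 higher, 1 lower), 24 with no filter, 0 with only the MOLF and NZB arrays (limma, 418 at an unadjusted p under 0.05, against 656 in the fit of 9 arrays), 12 with array weights, 80 with array kind as a block, 338 without MOLF B and NZB A and 2 with the title date as a block. The cause of these shifts was not tested, except that 4 arrays leave 2 residual degrees of freedom. With the letters A and B as a replicate block it was 12, and the crossed pairing is the array kind block above, with 28 higher and 52 lower. Leaving out 1 array gave between 3 and 15. Trimmed mean scaling, the other floors, the stricter filter and no intensity trend gave 26 to 44 and kept 23 to 37 of the 38 calls. Leaving out MOLF A and NZB B gave 40 (21 higher, 19 lower), of which only 4 were among the 38. Array weights were 0.546 for MOLF and 0.484 for NZB arrays, against 1.2 to 2.13 for the others, and kept the calls of Acta1, Atp2a1, Myh4, Myh1, Scgb1b27, B2m, Chia1, Smr3a, Mup5 and Bpifa2 among named genes. The title date block kept Acta1. Levels at the floor make the folds of Mup5, Mup3, Amy1, Gm4736 and Map3k1 bounds. They make those of Smr3a, Pdxdc1, Pygm and Ifit3, each with 1 array at the floor, understatements.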

Other observations

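Of the 150 probe sets that agreed between the matched differences, 113 did not pass the test, and 36 of these passed when the kind of array was a block, a fit with fewer residual degrees of freedom and a smaller spread. Among them, named after their values were seen, were the muscle genes Tnnt3, Actn3, Ckm and Casq1, the interferon genes Ifit1, Mx1 and Irgm1, the class II genes H2-Eb1 and H2-Ea, and Btn1a1, a milk fat globule protein, all lower in MOLF. Higher in MOLF were Dnase1, Gadd45b and Apoc1, a lipoprotein component. Eln, elastin of the extracellular matrix, differed by -1.26 between MOLF and NZB tumours, with an adjusted p of 0.253 in the fit of 9 arrays. On a second Eln probe set the groups overlapped, at 8.41 and 5.09 in MOLF tumours and 5.81 and 9.48 in NZB tumours.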
